A study of Mus musculus with 24 samples.

Results

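Prdm1, Tspan33, Dnah2, Slc25a51, Tbc1d4, Sema7a, Slc49a4, Arl5a, Adora2a and C9orf72 are 10 of the 54309 gene models counted in mouse bone marrow-derived dendritic cells (BMDC). They were selected on measured values of these libraries: their total RNA was higher when cells of the mutant genotype received a BRAF-V600E inhibitor than when they did not. That difference is therefore given only as a description, without a test. The inhibitor in wild-type (WT) cells, which the choice did not use, is tested, and so is the polysome RNA of the mutant cells. The polysome libraries took no part in the choice, but they came from the same cultures as the total RNA that did. The level of untreated mutant against WT cells is tested too, but with the mutant libraries that also took part in the choice.

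The cells were grown from whole bone marrow for 7 days in medium rich in GM-CSF, a growth factor that drives marrow cells towards dendritic and other myeloid cells. They were WT, or of a genotype named LCH or mutant, after Langerhans cell histiocytosis, a disease of dendritic-type cells in which the kinase BRAF often carries the activating change V600E. Each genotype was left without inhibitor or received it for 1 h, and every culture was then given LPS, the bacterial ligand of TLR4, for 3 h and a pulse of cycloheximide, which holds ribosomes on mRNA. RNA came from whole lysate (total RNA) or from pooled gradient fractions with more than 2 polysomes (polysome RNA), so there are 8 groups of 3 libraries, 24 in all. The column names carry letters for pools (A, BD and C in WT, E, F and G in LCH, where the third pool is named GH in polysome RNA and is called G here), and the promoter or Cre behind the mutant allele, the inhibitor's name and the number of animals in a pool are not given in the sources used here. Whether the pools were separate cultures of 1 colony or separate animals is likewise not given, so p-values measure the spread between these 3 pools.

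BRAF phosphorylates MEK, which activates ERK, and in resting cells this chain waits for a signal from RAS. The V600E form signals without RAS and is the form for which the inhibitor used here is named. ERK acts on transcription in both directions: it raises feedback genes such as the phosphatase Dusp6, and genes that it keeps low can rise when the chain is blocked. The 10 genes share no pathway. Prdm1 encodes BLIMP-1, a zinc finger repressor that ends the B cell programme in plasma cells and restrains dendritic cell activation. Sema7a encodes a membrane-anchored semaphorin that binds plexin C1 and beta-1 integrins, and Adora2a an adenosine receptor that raises cyclic AMP and dampens the inflammatory output of myeloid cells. Tspan33 is a tetraspanin of the group that escorts the protease ADAM10. Slc25a51 carries NAD into mitochondria and Slc49a4 is a lysosomal membrane transporter. Tbc1d4 switches off Rab GTPases in vesicle traffic and is best known from insulin-driven glucose uptake, and Arl5a is a small GTPase of the trans-Golgi. C9orf72 acts with SMCR8 and WDR41 in lysosome and autophagy control. Dnah2 encodes a heavy chain of ciliary dynein.

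The 250 bases before the annotated start are shown for the 3 genes in which a searched motif was found. They are from RefSeq on GRCm38.p6, printed 5′ to 3′ on the gene's own strand, with motif matches in capitals.
Prdm1, chr10:44458749-44458998, minus strand: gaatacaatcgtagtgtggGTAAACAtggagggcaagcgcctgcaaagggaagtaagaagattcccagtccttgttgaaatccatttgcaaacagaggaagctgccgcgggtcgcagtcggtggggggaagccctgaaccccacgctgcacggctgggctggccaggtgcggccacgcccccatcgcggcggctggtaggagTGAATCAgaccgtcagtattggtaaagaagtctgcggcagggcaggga
Dnah2, chr11:69549109-69549358, minus strand: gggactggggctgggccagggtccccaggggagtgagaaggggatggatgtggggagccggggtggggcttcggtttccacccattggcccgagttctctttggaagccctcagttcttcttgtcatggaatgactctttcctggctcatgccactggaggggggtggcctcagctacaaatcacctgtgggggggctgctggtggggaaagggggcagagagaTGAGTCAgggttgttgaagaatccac
Slc49a4, chr16:35769371-35769620, minus strand: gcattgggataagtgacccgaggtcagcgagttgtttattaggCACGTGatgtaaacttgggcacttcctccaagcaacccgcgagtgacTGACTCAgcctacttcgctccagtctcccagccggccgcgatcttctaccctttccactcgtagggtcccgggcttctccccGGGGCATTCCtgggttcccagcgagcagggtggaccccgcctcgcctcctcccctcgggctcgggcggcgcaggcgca
RefSeq entries were at hand for 8 of the 10 genes (all but Slc25a51 and Adora2a). Each was searched on both strands for 7 motifs that do not overlap in the matches found: AP-1 (TGANTCA), ETS (CCGGAAG), FOXO (GTAAACA), E-box (CACGTG), STAT (TTCNNNGAA), the PRDM1 site (AAGTGAAAG) and an NF-kB site. An AP-1 match stood in 3 of the 8, beginning 48 bases before the start in Prdm1, 26 in Dnah2 and 160 in Slc49a4, against 6.75% of 32851 mouse promoters of the same length. Prdm1 also held a FOXO match, which 3.17% of promoters held, and Slc49a4 an E-box and an NF-kB match, which 6.02% and 7.25% held. The ETS, STAT and PRDM1 motifs, held by 6.91%, 7.02% and 0.368% of promoters, were not among the letters of these 8 windows. A match describes the sequence and no binding was measured.

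Total RNA libraries held 19046640 to 39792221 counts in LCH and 19062502 to 20484170 in WT. LCH polysome libraries held 9188923 to 30455139 counts, with 18.0 to 65.1% on 4 rRNA-type genes, and WT polysome libraries 2017104 to 4090602, with 71.4 to 99.2% on those genes. That left 24065 to 1171449 counts for all other genes in a WT polysome library. Pool G stood apart: its total RNA libraries held counts for 37388 and 38431 genes, where those of the other LCH pools held 17243 to 18406. Results were therefore also computed without it. Dusp6, the readout of ERK activity, was at 5.21, 7.37 and 9.25 CPM (counts scaled to a common library total after TMM) in WT and at 40.8, 55.1 and 69.5 in LCH, and at 9.25, 10.3 and 10.8 in LCH with inhibitor. In WT with inhibitor Dusp6 was at 7.44, 8.43 and 11 CPM, above the untreated library of each pool. That difference was not called (log2 fold change 0.30, edgeR quasi-likelihood test, adjusted p = 0.63). The levels without inhibitor and those of LCH with inhibitor match the labels, while the V600E allele itself cannot be read from gene counts. The 10 dendritic cell markers were all detected in total RNA (summed 3230 to 4370 CPM in untreated WT, 4450 to 5450 in untreated LCH).

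The first question was whether genes that were higher with inhibitor in LCH cells were lower in untreated LCH than in untreated WT cells. In total RNA, 9 of the 10 were called lower (edgeR quasi-likelihood test, Benjamini-Hochberg adjusted p under 0.05 over 13375 genes), where 14.9% of all genes tested were called lower. The median log2 fold change of the 10 was -1.15, beside 0.02 over all genes tested. All 10 had no overlap between the groups and lay lower in LCH, which was so for 22.1% of all genes tested. The untreated LCH libraries also took part in choosing the genes, and a gene that is by chance low there is favoured by that choice, so these counts are not independent of it.

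Among the surface receptors and ligands, Sema7a had the largest difference. Its total RNA was 213, 191 and 241 CPM in WT and 53.8, 52.9 and 50.9 CPM in LCH, which is -2.03 as a log2 fold change (SE 0.12, adjusted p = 3.8e-06). Adora2a was at 201, 210 and 214 CPM in WT and at 82.0, 84.6 and 75.5 in LCH (log2 fold change -1.37, SE 0.08, adjusted p = 3.7e-06). The tetraspanin Tspan33 was at 35.2, 21.5 and 24.9 CPM in WT and at 7.32, 8.44 and 7.50 in LCH (log2 fold change -1.81, SE 0.21, adjusted p = 0.00016). Every LCH library of these 3 genes lay below every WT library, with wide gaps.

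Genes of vesicle traffic and lysosomes differed less evenly. Tbc1d4 was at 72.6, 63.9 and 63.6 CPM in WT and at 18.8, 16.4 and 20.2 in LCH, or -1.85 as a log2 fold change (SE 0.15, adjusted p = 1.4e-05). For the lysosomal transporter Slc49a4 the levels were 62.2, 81.3 and 74.8 CPM against 31.3, 35.5 and 35.8 (log2 fold change -1.09, SE 0.12, adjusted p = 9.4e-05). Arl5a fell from 155, 155 and 153 CPM in WT to 99.7, 92.4 and 90.5 in LCH (log2 fold change -0.71, SE 0.09, adjusted p = 0.00023). C9orf72, at 45.4, 43.8 and 43.8 CPM in WT, was at 30.4, 32.3 and 32.0 in LCH (log2 fold change -0.49, SE 0.07, adjusted p = 0.00056). The ranges of both genotypes were narrow for Arl5a and C9orf72, so that these smaller differences passed the test.

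The remaining genes were the dynein, the NAD carrier and the repressor. Dnah2 was at 11.8, 9.90 and 11.8 CPM in WT and 4.76, 4.93 and 4.80 in LCH (log2 fold change -1.21, SE 0.13, adjusted p = 8.5e-05). Slc25a51 did not pass the test, with 61.5, 50.4 and 54.1 CPM in WT and 48.5, 43.0 and 43.4 in LCH (log2 fold change -0.30, SE 0.12, adjusted p = 0.092). Prdm1 had 24.5, 27.5 and 24.1 CPM in WT and 18.9, 21.6 and 19.9 in LCH, or -0.33 as a log2 fold change (SE 0.10, adjusted p = 0.031). Prdm1 and Slc25a51 thus had the smallest genotype differences of the 10, and their groups lay close without overlapping. The call of Prdm1 was lost without LCH untreated pool E (adjusted p = 0.11) or G (0.074), without WT untreated pool BD (0.099) or C (0.057), without every library of pool G (0.065), and without the low-count filter (0.16). The other 8 calls held in each of these fits.

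Marker genes of several cell types differed between the genotypes as well, where 14.8% of all genes tested were called higher and 14.9% lower. Of the 10 dendritic cell markers, 3 were called higher and 2 lower in untreated LCH. Of 11 macrophage and monocyte markers, 2 were called higher and 2 lower. The summed level of 12 neutrophil markers was 637 to 852 CPM in untreated LCH and 1710 to 3740 CPM in untreated WT, with 9 of the 12 called lower. That of 9 eosinophil markers was 41.1 to 97.0 CPM against 405 to 736, with 7 called lower and 1 higher. Mast cell and basophil markers summed to 157 to 201 CPM against 213 to 348, with 5 of 8 tested called lower and 1 higher, and Cma1 and Mcpt4 at 0 in every untreated WT library. The B and plasma cell markers, of interest for Prdm1 and Tspan33, summed to 43.2 to 46.3 CPM in LCH and 36.0 to 79.1 CPM in WT, and none was called. The part of such cells in the genotype differences was not tested, and in bulk RNA fewer cells of a type and less RNA per cell cannot be told apart.

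**Figure D1:**
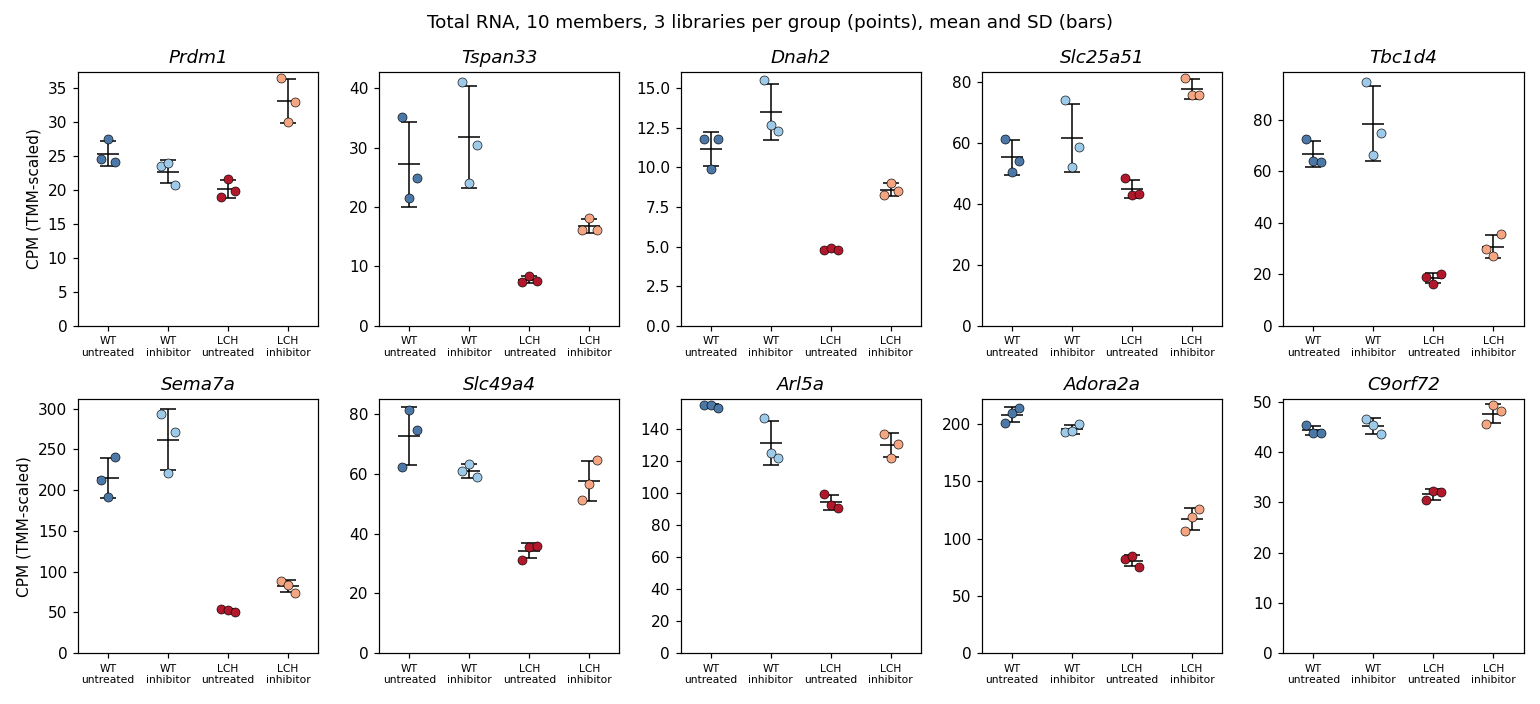
Total RNA level of each of the 10 genes (y axis, TMM-scaled CPM, starting at 0) in the 4 groups of total RNA; points are libraries, long bars the mean and short bars the SD of 3 libraries. In every panel the untreated LCH libraries lie below the untreated WT libraries, and LCH libraries with inhibitor lie above untreated LCH libraries, which is how the genes were picked.

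With inhibitor, the 10 genes were higher in LCH total RNA by log2 fold changes of 0.46 to 1.12. They are 10 of the 19 genes called higher in this contrast, 0.142% of the 13375 tested, and nothing is read from that count because the contrast chose them. Without 1 library, 1 to 7 of the 10 passed the same threshold, the fewest without LCH untreated pool E, and 1 passed without pool G. Of the 19, Arl5a had the smallest log2 fold change (0.46). Just outside the threshold, by adjusted p and not by fold change, stood Mylip (0.89), Ago1 (0.42) and Depdc7 (0.85). The 9 other genes called higher were Gm44502, Rbpms2, Tmem86a, Tmtc2, Plekhg2, Slc8a1, Rnf167, Stard5 and Pik3r1, of which 6 were also called lower in untreated LCH than in WT. In the same contrast 2 of 8 tested mast cell and basophil markers were called lower, beside 0.598% of all genes tested, and their summed level was 133 to 166 CPM with inhibitor. No marker of the other cell types was called, and the part of such cells in the difference was not tested.

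Prdm1 in LCH cells with inhibitor was at 36.5, 30.0 and 32.9 CPM, above every WT library. Slc25a51 likewise lay above WT, at 81.5, 75.8 and 75.9 CPM. These 2 genes were the ones closest to WT without inhibitor. Tspan33 had the largest difference of the 10, 1.12 on the log2 scale, and reached 16.2, 18.2 and 16.1 CPM, still below each WT library. Dnah2 came to 8.25, 9.03 and 8.53 CPM (difference 0.83) and Slc49a4 to 51.3, 56.6 and 64.7 CPM (0.75). Both had covered about the same part of the way to the WT level. For Tbc1d4 the levels were 29.6, 27.0 and 35.6 CPM (0.73), for Sema7a 88.6, 84.1 and 73.8 CPM (0.65) and for Adora2a 107, 119 and 126 CPM (0.54). All of these stayed far under their WT libraries. Arl5a, at 137, 122 and 131 CPM, was below untreated WT, and C9orf72, at 45.5, 49.3 and 48.1 CPM, was at or above it.

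Set against the untreated genotype difference on the log2 scale, the difference with inhibitor came to 264% in Slc25a51, 217% in Prdm1 and 121% in C9orf72. It was 61.7 to 69.0% in Dnah2, Slc49a4, Arl5a and Tspan33. In Tbc1d4 it was 39.5%, in Adora2a 39.4% and in Sema7a 31.8%. These percentages share the untreated LCH libraries in both terms and are large where the genotype difference is small.

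LCH cells with inhibitor were next set directly against untreated WT cells. Prdm1 (log2 fold change 0.39, adjusted p = 0.018) and Slc25a51 (0.49, adjusted p = 0.015) were called higher, where 12.5% of all genes tested were. Called lower were 6 genes, where 13.1% of all genes tested were: Sema7a (-1.39, adjusted p = 5.1e-05), Tbc1d4 (-1.12, adjusted p = 0.00046), Adora2a (-0.83, adjusted p = 8.2e-05), Tspan33 (-0.69, adjusted p = 0.028), Dnah2 (-0.37, adjusted p = 0.045) and Slc49a4 (-0.34, adjusted p = 0.049). Arl5a (-0.25, adjusted p = 0.056) and C9orf72 (0.10, adjusted p = 0.31) did not pass. The calls of Sema7a, Tbc1d4 and Adora2a held without each library in turn. That of Prdm1 was lost without LCH inhibitor pool E, WT untreated pool A or WT untreated pool C (adjusted p 0.054 to 0.089), and that of Slc25a51 without LCH inhibitor pool E or WT untreated pools BD or C (0.066 to 0.081). Tspan33 and Dnah2 lost theirs without any LCH inhibitor library and without WT untreated pool A or C (0.058 to 0.15), and Slc49a4 without LCH inhibitor pools E or F or WT untreated pools BD or C (0.11 to 0.16). Without every library of pool G, Tspan33 (0.084) and Dnah2 (0.088) lost their calls. Without the low-count filter Prdm1 (0.095), Dnah2 (0.29) and Slc49a4 (0.075) lost theirs, and from only the compared groups Dnah2 (0.085) and Slc49a4 (0.11). Each of these 3 settings left 4 of the 10 called lower, while DESeq2 called 7, with Arl5a added (adjusted p = 0.025).

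With both genotypes on inhibitor, Prdm1 was higher in LCH (log2 fold change 0.54, adjusted p = 0.0038), where 9.27% of all genes tested were called higher. Sema7a (-1.67), Tbc1d4 (-1.35), Tspan33 (-0.92), Adora2a (-0.74) and Dnah2 (-0.65) were called lower, with adjusted p from 2.1e-05 to 0.0087, where 11.1% of all genes tested were called lower. Slc25a51 (0.33, adjusted p = 0.081), Slc49a4 (-0.09, adjusted p = 0.64), Arl5a (-0.02, adjusted p = 0.91) and C9orf72 (0.07, adjusted p = 0.49) did not pass. Slc25a51 passed without WT inhibitor pool A (0.48, adjusted p = 0.017). These 2 comparisons use the LCH inhibitor libraries that chose the genes, so a high level there is favoured by the choice.

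Whether the inhibitor moved these genes without the mutant kinase was asked in WT cells, whose libraries the choice did not use. None of the 10 was called in WT total RNA, where 0.710% of all genes tested were called, nor by DESeq2. Both fits left the pairing of pools out. With the pool as a block, 3 were called higher and 2 lower, beside 10.5% and 11.1% of all genes tested, as described below. At an unadjusted p under 0.05, 2 were higher and 2 lower, beside 8.01% and 6.27% of all genes tested. The log2 fold changes ran from -0.25 (Slc49a4) to 0.29 (Sema7a), with a median of 0.09, beside 0.01 over all genes tested.

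The WT pools showed small differences in both directions. Sema7a was at 294, 221 and 271 CPM with inhibitor in pools A, BD and C, above the same pool's untreated library each time (log2 fold change 0.29, SE 0.12, adjusted p = 0.31). Tspan33 was at 41.1, 24.1 and 30.4 CPM and Tbc1d4 at 94.6, 66.1 and 74.6 CPM, also above the untreated library of each pool. Their groups with and without inhibitor overlapped. Slc49a4 was at 60.9, 63.4 and 58.8 CPM and Arl5a at 147, 125 and 122 CPM, below the untreated library of each pool. Prdm1 was at 23.5, 23.9 and 20.7 CPM (log2 fold change -0.16, adjusted p = 0.53), below every untreated WT library. Arl5a and Adora2a also lay below every untreated WT library, as 8.45% of all genes tested did. Dnah2 lay above every untreated WT library, as 11.2% did. In all, 5 genes were higher in every WT pool, as 27.0% of all genes tested were, and 4 lower in every WT pool, as 23.9% were.

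With the pool as a block, Sema7a (0.28, adjusted p = 0.0037), Tbc1d4 (0.22, adjusted p = 0.025) and Tspan33 (0.23, adjusted p = 0.033) were called higher in WT, and Arl5a (-0.24, adjusted p = 0.0092) and Slc49a4 (-0.25, adjusted p = 0.017) lower. Under that fit 10.5% of all genes tested were called higher and 11.1% lower, 2899 in all. On data simulated for that fit, 8.77% of calls were genes that had not been changed. Whether the inhibitor effect of a gene differs between the genotypes was not tested, since the LCH side chose the genes.

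**Figure D2:**
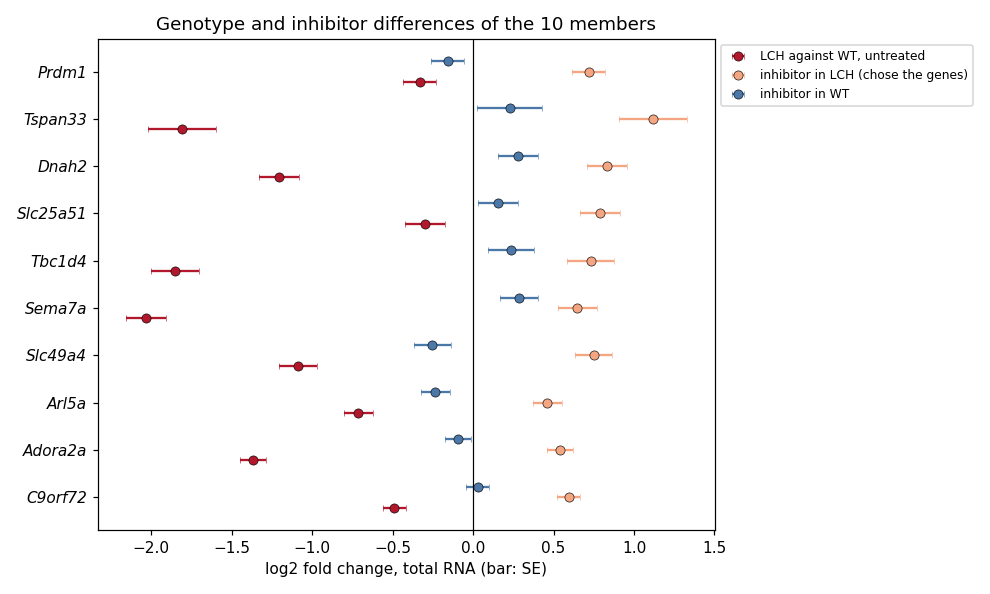
log2 fold change in total RNA (x axis) of each of the 10 genes, with its SE as a bar, for LCH against WT without inhibitor, inhibitor in LCH and inhibitor in WT. The genotype differences run from -2.03 to -0.30, the inhibitor differences in LCH from 0.46 to 1.12 by choice of the genes, and those in WT from -0.25 to 0.29.

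Polysome RNA of LCH cells came from separate libraries. Per the labels, some cells of a culture were kept for total RNA and the rest went to polysome profiling, and libraries were matched by pool letter, with GH taken as G. There, every one of the 10 genes was higher with inhibitor in each of the 3 pools, where 16.0% of all genes tested were higher in each pool. None was called, and none of the 10757 genes tested was (0% by edgeR's quasi-likelihood test, 289 at an unadjusted p under 0.05, 24 by DESeq2, with no member among them). At an unadjusted p under 0.05, 6 of the 10 were higher, beside 1.26% of all genes tested. The 2 inhibitor states did not overlap in 7 of the 10, higher with inhibitor, beside 4.85% of all genes tested. The median log2 fold change was 0.74, beside 0.01 over all genes tested. Because the cultures are those whose total RNA chose the genes, a difference between cultures that favoured a gene there can recur here. These polysome counts are therefore not independent of the choice. On simulated libraries of this depth the same test recovered 4.12% of genes changed by 1 on the log2 scale and 43.8% of those changed by 2. Other libraries were simulated from the fit with the pool as a block. On those, the block fit recovered 36.8% and 70.9%, and 8.57% of its calls were genes that had not been changed. The 2 simulations thus differ in their data as well as in the fit. On the measured libraries the block fit called none of the 10 either.

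Prdm1 had the largest difference on polysomes. It was at 2.19, 2.62 and 3.10 CPM without inhibitor in pools E, F and G and at 5.64, 10.4 and 7.43 CPM with it, or 1.55 as a log2 fold change (SE 0.44, adjusted p = 1 by edgeR's quasi-likelihood test). The lowest library with inhibitor lay above the highest without. These levels rest on few counts: 34, 15 and 53 without inhibitor in pools E, F and G, and 182, 84 and 113 with it. Dnah2 followed, at 4.83, 4.72 and 3.04 CPM without and 8.52, 13.4 and 7.24 CPM with inhibitor (log2 fold change 1.21, SE 0.41, adjusted p = 1). Slc49a4 was at 12.2, 7.17 and 16.7 CPM without and 20.9, 22.9 and 30.7 with inhibitor (1.03, SE 0.34, adjusted p = 1). Sema7a was at 26.0, 13.3 and 22.9 CPM without and 45.4, 37.7 and 38.5 with inhibitor (0.96, SE 0.29, adjusted p = 1). In these 3 genes, too, the states did not overlap.

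Adora2a came to 49.0, 55.0 and 42.9 CPM without and 68.9, 91.8 and 64.1 CPM with inhibitor (log2 fold change 0.61). C9orf72 was at 8.25, 8.74 and 7.95 CPM without and 12.7, 12.7 and 11.4 with inhibitor (0.56). Slc25a51 was at 14.6, 14.3 and 14.4 CPM without and 29.1, 15.2 and 26.7 with inhibitor (0.71), where pool F barely moved. The states of these 3 did not overlap. Tbc1d4 stood at 4.57, 3.67 and 9.41 CPM without and 11.9, 3.70 and 11.4 with inhibitor (0.60), again with pool F nearly level. Tspan33 was at 3.80, 8.91 and 7.02 CPM without and 7.00, 16.4 and 10.1 with inhibitor (0.77), and Arl5a at 24.5, 14.9 and 29.5 CPM without and 39.1, 25.4 and 42.1 with inhibitor (0.63). In these last 3 genes the states overlapped, although each pool was higher with inhibitor.

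**Figure D3:**
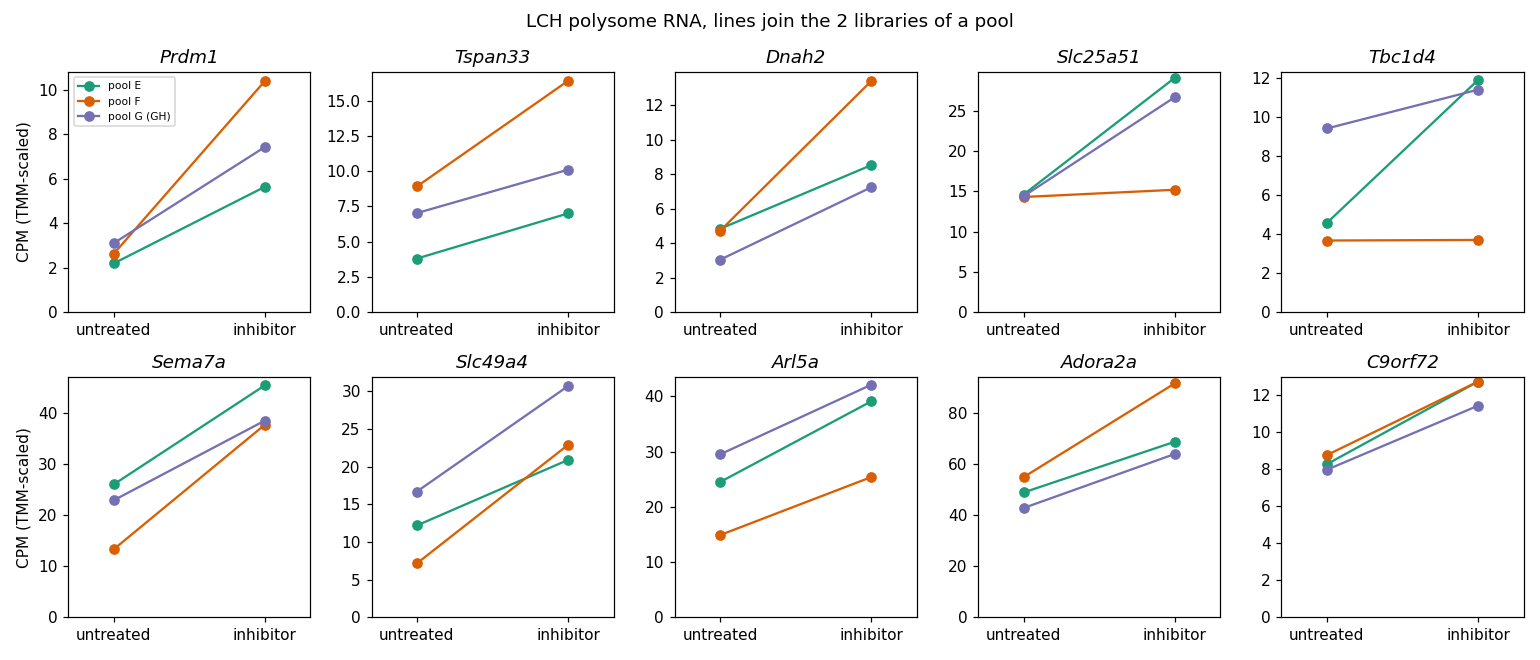
Polysome RNA level in LCH cells (y axis, TMM-scaled CPM, starting at 0) without and with inhibitor for each of the 10 genes; a line joins the 2 libraries of a pool. Every line slopes upward, least for Slc25a51 and Tbc1d4 in pool F, and for Prdm1 the pools go from 2.19, 2.62 and 3.10 to 5.64, 10.4 and 7.43.

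Whether polysome RNA followed total RNA was looked at as the log2 ratio of polysome to total CPM in each LCH pool, with all 12 LCH libraries scaled together. The ratio is a description without a test, as its total RNA part chose the genes. With inhibitor, the median shift of the ratio over the 10 genes was -0.01, beside -0.06 over 14816 genes, and 5 of the 10 shifts were positive. The median was 0.11 without the 4 rRNA-type genes, 0.11 with DESeq2-type size factors and -0.10 to 0.19 without 1 pool (0.19 without pool G), so its sign depends on scaling and pool.

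For Prdm1 the ratio was -1.66, -1.76 and -1.30 in pools E, F and G without inhibitor and -1.36, -0.41 and -1.14 with it. It was higher with inhibitor in all 3 pools, by 0.60 on average (SD 0.65 over 3 pools), with most of that from pool F. The untreated polysome library of pool F held only 15 counts of Prdm1. Prdm1 had the lowest ratio of the 10 in untreated cells. Dnah2 had ratios of 1.23, 0.99 and 0.58 without and 1.26, 1.61 and 0.69 with inhibitor, higher in all 3 pools by 0.25 on average (SD 0.32). Tspan33 went the other way, with 0.35, 1.16 and 1.14 without and 0.07, 0.94 and 0.29 with inhibitor, lower in all 3 pools by 0.45 on average. C9orf72 was also lower in all 3 pools, with a mean shift of -0.17. The other 6 genes had mean shifts from -0.31 to 0.23, each with pools in both directions.

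**Figure D4:**
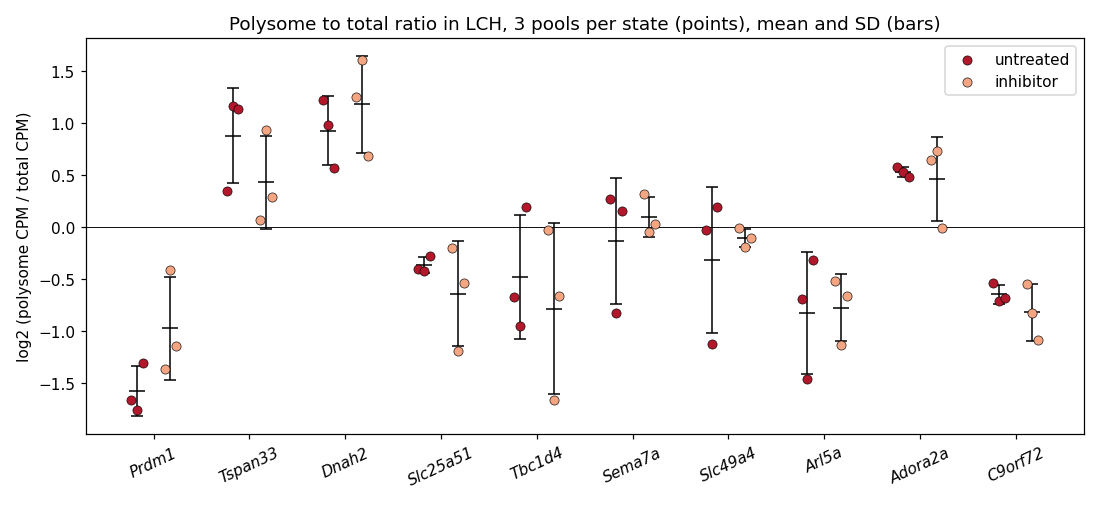
log2 ratio of polysome to total CPM (y axis) in LCH cells for each of the 10 genes, without and with inhibitor; points are the 3 pools, long bars the mean and short bars the SD. The states overlap or lie close for most genes, while Prdm1 goes from -1.57 to -0.97 on average and Tspan33 from 0.88 to 0.43.

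The genotype comparison on polysomes rests on few counts. Untreated WT polysome libraries of pools A, BD and C held 0, 26 and 0 counts of Prdm1, 0, 30 and 0 of Tspan33 and 0, 0 and 0 of Dnah2. Only Slc25a51 had counts in all 3, with 4, 167 and 19. Pool BD held the most counts of 8 of the 10 genes, whereas Sema7a had 0, 24 and 52. None of the 10 genes was called (1 at an unadjusted p under 0.05, Dnah2, higher in LCH, beside 32.8% of all genes tested), where 22.1% of 9902 genes tested were called and the median log2 fold change over all genes was 1.62. No fold is given for Dnah2 against a group at 0. DESeq2 called 1 of the 10 higher (Dnah2), as it did 10.2% of its genes, and 2 lower (Slc25a51, C9orf72), as it did 5.47%. Without WT untreated pool BD, 2 genes were called higher in LCH, Tspan33 (adjusted p = 0.048) and Adora2a (adjusted p = 0.023), when the remaining untreated WT libraries held 0 counts of each. With inhibitor, the WT polysome libraries together held 0 counts of Prdm1, Tspan33, Slc25a51 and C9orf72. They held 1 count of Adora2a, 22 of Sema7a, 32 of Slc49a4, 36 of Tbc1d4, 68 of Dnah2 and 180 of Arl5a. Whether WT polysome RNA follows the inhibitor was not tested.

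Relatives and partners of the 10 genes were read from named lists. Their counts in untreated LCH against WT stand beside 14.8% of all genes tested called higher and 14.9% called lower. Of 11 PRDM1 targets and partners, 1 was called higher in untreated LCH than WT, Myc (log2 fold change 1.98, adjusted p = 0.00029), which also responds to ERK. Called lower were Irf4 (-1.08, adjusted p = 0.0043), Spib (-1.06, adjusted p = 0.015) and Ctss (-0.75, adjusted p = 0.027). Bcl6 did not pass there (0.19, adjusted p = 0.46) and was higher in LCH with inhibitor than in untreated WT (0.84, adjusted p = 0.0075). With inhibitor in LCH, Myc was lower (-1.72, adjusted p = 0.0085) and the other 10 did not pass. Of 7 tested adenosine genes, the low-affinity receptor Adora2b (0.62, adjusted p = 0.031) and the ATP-degrading ectoenzyme Entpd1 (0.59, adjusted p = 0.011) were higher in untreated LCH. The nucleoside transporter Slc29a1 (-0.44, adjusted p = 0.048) was lower, and the receptor gene Adora3 was called lower with both genotypes on inhibitor (-1.002, adjusted p = 0.035). Adora2a and Adora2b therefore differed between the genotypes in opposite directions.

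Plxnc1, the plexin that binds semaphorin 7A, was lower in untreated LCH (-0.86, adjusted p = 0.00071), as was Sema4a (-1.37, adjusted p = 0.00014), and the other 5 of 7 genes on that list did not pass. Among them Sema4c (0.57, adjusted p = 0.25) and Sema4b (0.28, adjusted p = 0.69) were called higher in LCH on polysomes (adjusted p = 0.029 and 0.044). So were 21.4% of all genes tested there, and without every library of pool G no gene was called. No fold is given on polysomes at the WT counts. Of the tetraspanins that escort ADAM10, Tspan5 (-0.81, adjusted p = 0.0057) and Tspan17 (-1.02, adjusted p = 0.03) were lower, while Adam10 itself did not pass (-0.14, adjusted p = 0.28). Of the NAD genes, 3 of 7 were called lower, beside 14.9% of all genes tested. These were Nampt, the enzyme that recycles nicotinamide (-0.51, adjusted p = 0.0077), the mitochondrial enzyme Nmnat3 (-1.43, adjusted p = 0.0012) and the NAD kinase Nadk2 (-0.64, adjusted p = 0.046). The Arl5a relatives Arl5b (-0.57, adjusted p = 0.0036) and Arl5c (-0.78, adjusted p = 0.017) and the Golgi GTPase Arl1 (-0.37, adjusted p = 0.0045) were lower too, 3 of 7 genes of that list. Tbc1d1, the closest relative of Tbc1d4, was lower (-0.48, adjusted p = 0.024), as was Rab10 (-0.22, adjusted p = 0.04), and the other 4 of 6 did not pass. Rab14 was among those 4 (-0.22, adjusted p = 0.069) and was lower in LCH with inhibitor than in untreated WT (-0.27, adjusted p = 0.035).

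The partners of C9orf72, Smcr8 (-0.02, adjusted p = 0.87) and Wdr41 (-0.22, adjusted p = 0.22), did not pass, nor did the 2 tested relatives of Slc49a4. Only 1 of 11 other ciliary dynein heavy chains had enough counts to be tested, and it did not pass. Of 17 tested dendritic cell maturation genes, 6 were lower in untreated LCH, including the cytokine signalling inhibitor Socs2 (-1.36, adjusted p = 0.0016), the actin bundler Fscn1 (-1.79, adjusted p = 0.0039) and the cytokine subunit Il12b (-1.11, adjusted p = 0.001). None was higher. Apart from Myc, no gene of these lists was called with inhibitor in LCH total RNA. None was called with inhibitor in WT total RNA or in LCH polysome RNA.

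The total RNA pattern most like that of Prdm1 was looked for as the smallest root mean square difference of centred log2 levels over the 12 total RNA libraries, among 13365 genes. The closest were Slc8a1 (0.14), Txndc15 (0.15), Enox2 (0.16), Cercam (0.16) and Mfsd12 (0.16). Of the 10 genes, C9orf72 (0.20), Slc25a51 (0.20) and Arl5a (0.27) were nearest to Prdm1, and Tspan33 (0.77), Tbc1d4 (0.87) and Sema7a (1.00) farthest. The farthest genes were those with the largest genotype differences. The measure depends on how much a gene varies as well as on its pattern. A gene with small differences can therefore lie close to Prdm1 without sharing its pattern.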

How the data were processed

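Per the labels, total and polysome RNA of 24 libraries was sequenced. The deposited table holds estimated counts for 54309 gene models, made with Salmon per the submitters' processing notes, which also name DESeq2 and the build mm9. The table names no build, and versions are not given in the sources used here. Other deposited tables (normalized and log-transformed values) were not used. Columns were assigned to groups by the genotype, inhibitor and fraction in their names. Pool GH of the polysome table was taken as pool G.

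Counts were rounded and tested with edgeR 4.0.16 in R 4.3.3 (robust quasi-likelihood fits, TMM scaling, filterByExpr with a minimum count of 10, two-sided, Benjamini-Hochberg over all genes tested). The 12 total RNA libraries were fitted together, the inhibitor on LCH polysomes over 6 libraries, and the genotype on polysomes over 12. Total RNA had 13375 genes tested, LCH polysome RNA 10757 and all polysome RNA 9902. The 1281 rows without a symbol were kept. CPM is the count scaled to a common library total after TMM. SE is an approximate standard error, the size of the log2 fold change divided by the square root of the test's F statistic. Ratios and likeness used log2(CPM + 0.5). The fits were tested on simulated data.

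Members and lists were chosen with earlier results of these data known. All 10 members are described, and up to 3 genes per list, those of smallest p in any comparison. Spib, Ctss, Slc29a1 and Sema4b were named besides, after their values were seen. The labels' replicate numbers are not in the column names, so pairing by pool was checked from the data. Same-pool libraries in the 2 inhibitor states correlated in their deviations from the group means at 0.56, 0.53 and 0.19 in WT total RNA. The values were 0.63, 0.48 and 0.79 in LCH total RNA and 0.25, 0.29 and 0.45 in LCH polysome RNA. All were above 0.1, so the pool was accepted as a block. Pools E and F of LCH total RNA also passed 0.1 with each other, at 0.42 and 0.38. Passing 0.1 alone therefore does not single out a pair. Alternatives were DESeq2 1.42.0, DESeq2-type size factors, no low-count filter, fits of only the compared groups, the pool block, leaving out 4 rRNA-type genes and leaving out each library. Leaving out pool G was added after seeing the data.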

Additional observations from a re-analysis of the deposited data

Results flagged for a closer look

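For 4 genes the inhibitor difference in total RNA went opposite ways in the genotypes: each WT pool was lower and each LCH pool higher with inhibitor. The mean log2 difference over the 3 WT pools was -0.16 for Prdm1, -0.25 for Slc49a4, -0.24 for Arl5a and -0.09 for Adora2a. Being higher in LCH was fixed by the choice of genes, and 23.9% of all genes tested were lower in every WT pool. The difference between the genotypes was not tested, since the LCH side chose the genes.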

How the results depend on the processing

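Each comparison rests on 3 pools a group, and WT polysome libraries kept 24065 to 1171449 counts outside the rRNA-type genes. In untreated LCH against WT total RNA, no alternative called a member higher and 8 to 9 were called lower without 1 library, with 2371 to 3768 genes called. The inhibitor in WT called 468 genes with DESeq2, 299 without the filter, 6 from only the compared groups, 2899 with the pool as a block and 8 to 244 without 1 library. The block, which the pairing of pools allows, called 3 members higher and 2 lower, and the other alternatives 0. In LCH total RNA the inhibitor called 409 genes with DESeq2, 342 without the filter, 2302 with the block, 33 without pool G and 20 to 73 without 1 library. It called 1 member without pool G and 1 to 7 without 1 library. On LCH polysomes it called 24 genes with DESeq2, 36 without the filter, 29 with the block and 0 to 1 without 1 library, never a member. LCH with inhibitor against untreated WT called 1 member higher without the filter, and 0 to 2 higher and 3 to 5 lower (1778 to 3321 genes) without 1 library. With both on inhibitor, 1 to 2 were higher and 5 lower (1470 to 2368 genes) without 1 library.

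The genotype on polysomes called 1065 genes with DESeq2, 921 without the filter, 0 without pool G and 1662 to 2701 without 1 library. Members called higher were 1 with DESeq2, 1 from only the compared groups and 0 to 2 without 1 library, and members called lower 2 with DESeq2. The median shift of the polysome to total ratio changed sign, to 0.11 without the rRNA-type genes, 0.11 with DESeq2-type size factors and -0.096 to 0.194 without 1 pool. Adora2a changed sign too (0.049, 0.048, and -0.211 to 0.136 without 1 pool), and without 1 pool so did Sema7a (-0.04 to 0.412), Slc49a4 (-0.144 to 0.475) and Arl5a (-0.088 to 0.251). The causes were not tested. Apart from the WT calls given above, the block changed no call of a member.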
